A study of Mus musculus with 4 samples.

Results

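The genes described here encode histone lysine methyltransferases, their shared partner proteins, and histone lysine demethylases, apart from Polycomb repressive complex 2. They are 41 genes chosen by name, with older symbols of the same gene counted. Of these, 39 were represented by at least 1 probe set that named a single gene, with 105 such probe sets in all, and Ash1l and Suv39h1 were not analysed here. All 39 genes had a probe set bright enough to be tested, against 12703 genes over the whole array. Expression was measured in basal epidermal cells that were isolated by cell sorting at embryonic day 16 in the mouse. Of the arrays, 2 were from conditional Ezh2 knockouts (Ezh2cKO) and 2 from wild-type (WT) embryos, all of a mixed C57 and CD1 background, numbered replicate 1 and 2 within each genotype. The Cre line that removes Ezh2 is not given in the sources used here. The labels do not state whether replicates came from separate animals, so each p-value rests on the spread of these arrays alone, which may be technical.

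Methyl groups on histone lysines are written by methyltransferases, most of which share a SET catalytic domain, and are removed by demethylases. Most demethylases are JmjC-domain enzymes that need iron and oxoglutarate, while Kdm1a uses flavin. Ezh2 is the main enzyme that writes methylation on lysine 27 of histone H3 (H3K27), a mark of silenced genes, and Kdm6a and Kdm6b remove it. The Kmt2 and Setd1 enzymes write H3K4 methylation at active promoters and enhancers and are known to act against Polycomb silencing. H3K36 methylation along gene bodies is known to hinder the Ezh2 complex, whereas H3K9 and H4K20 methylation mark other forms of silent chromatin. The comparison therefore asks whether transcripts of the other writers and erasers differed in basal cells with the Ezh2 deletion.

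Ezh2 itself, which checks the labels, had signals of 661 and 1308 on the Ezh2cKO arrays, against 3336 and 3603 on the WT arrays. The higher Ezh2cKO value was thus well under the lower WT value. The sources used here do not place its probe set relative to the deletion. The median signal over all probe sets was 87.4 and 148 on the Ezh2cKO arrays, against 91.6 and 137 on the WT arrays, with the arrays numbered 2 higher in both genotypes. Basal markers were bright on every array, with Krt14 between 14501 and 16592. They were not all even between genotypes. Of 7 basal markers, 5 had a positive and 2 a negative log2 difference. Itga6 was lower on both Ezh2cKO arrays, at 6327 and 9411, against 11908 and 10639 on the WT arrays. The summed signal of the 7 basal markers was 62895 and 63129 on the Ezh2cKO arrays, against 68986 and 61272 on the WT arrays. Markers of other skin cells were also present, and those of fibroblasts were bright. The summed signal of 7 fibroblast markers was 45958 and 57523 on the Ezh2cKO arrays, against 48595 and 54187 on the WT arrays. That of 7 endothelial markers was 3644 and 9603 on the Ezh2cKO arrays, against 7432 and 8962 on the WT arrays, and that of 10 stress and dissociation genes was 58322 and 85049, against 41335 and 63493. Of 6 immune markers, 4 lay under a signal of 100 on both Ezh2cKO arrays, against 3 on the first and 4 on the second WT array. Which cells gave each transcript cannot be told from bulk RNA, nor can fewer cells of a type and less RNA per cell be told apart. The part of these markers in the values below was not tested.

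By the brightest probe set of each of the 39 genes, measured differences between Ezh2cKO and WT were mostly small. This does not show that the transcripts were equal. Over all kept probe sets of these genes the log2 differences ran from -0.52 to 0.70. No probe set of the 39 genes passed limma's adjusted threshold of 0.05, and 0 of 27022 probe sets tested did (0%). Ezh2 itself did not pass, at a log2 difference of -1.88 (limma, adjusted p = 0.999979), so the lack of calls says little about smaller differences. At an unadjusted p under 0.05, 0 of their 87 kept probe sets were higher and 0 lower, while 94 and 16 of all 27022 were. By gene, 0 of 39 were higher and 0 lower at that p, beside 0.527% and 0.0787% of all genes. With each gene represented by its brightest probe set, the log2 differences between Ezh2cKO and WT ran from -0.30 for Kmt2d to 0.37 for Kdm4c, on the log2(signal + 16) scale. Their median size regardless of sign was 0.07, beside 0.10 over all 12703 genes. The difference was within log2 0.2 either way for 35 of 39 genes (89.7%), beside 75.1% of all genes, and 0 of 39 reached log2 0.5, beside 4.2% of all genes. All 39 genes lay at a mean signal of 201 or more, as did 79% of all genes tested, and signals vary less on brighter probe sets.

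These arrays limit how large a difference could have gone unseen. The 95% confidence interval of the difference in limma lay between log2 -1 and 1, that is within a 2-fold change either way, for 36 of 39 genes (92.3%), beside 68.4% of all genes. The exceptions were Kdm4a (-1.28 to 0.90), Kdm4c (-0.43 to 1.16) and Prdm1 (-0.36 to 1.05). The narrowest intervals reached log2 -0.45 to 0.33 for Kmt5a and -0.38 to 0.42 for Smyd2. With 2 arrays per genotype and no block in the fit, differences inside these bounds could not be told from 0. The intervals are per gene and not adjusted for the number of genes. The median over the 39 genes was -0.05, beside -0.004 over all genes, and 25 of 39 were negative, beside 50.9% of all genes. Within replicate number 1 the median over the 39 genes was -0.003, beside 0.016 over all genes. Within number 2 it was -0.05, beside -0.015 over all genes. The median in number 1 was near 0, so a clear excess of negative values was not seen in both. Without the second Ezh2cKO array the median over the 39 genes was 0.025, beside 0.028 over all genes.

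**Figure D1:**
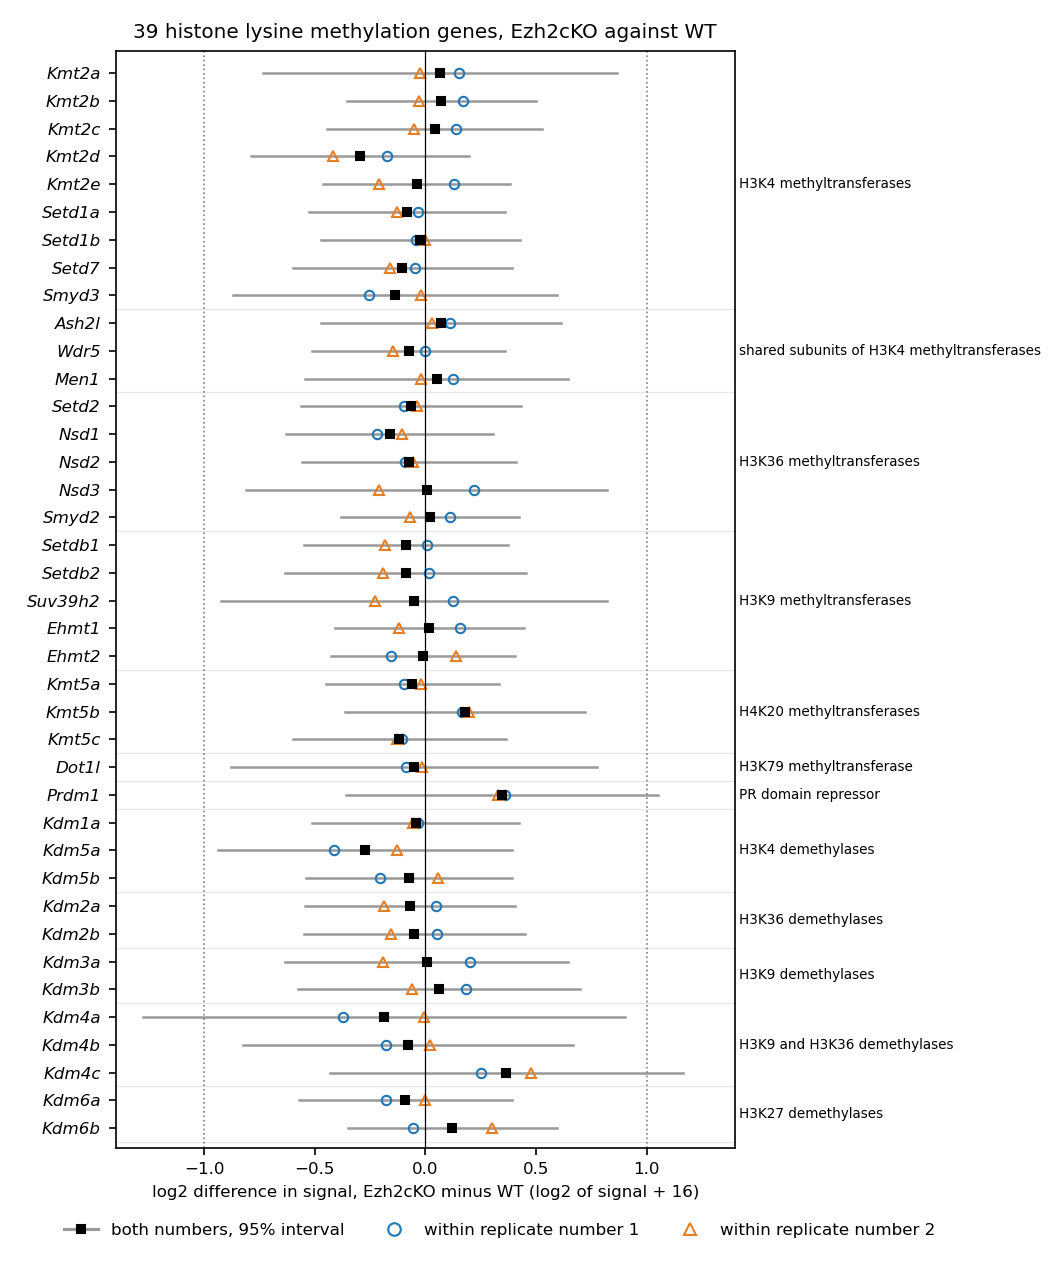
Log2 difference in signal between Ezh2cKO and WT for the brightest probe set of each of the 39 genes, grouped by the role of the protein. Black squares are the difference over both replicate numbers with limma's 95% confidence interval in grey, and open circles and triangles are the differences within number 1 and number 2, each from 1 array per genotype. Every square lies between -0.30 and 0.37, and every interval crosses 0.

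Genes whose Ezh2cKO values were both above, or both below, the 2 WT values are called separated here. Of the 39 genes, 2 were separated upwards (5.13%), Prdm1 and Kdm4c, where 8.52% of all genes were. Another 3 were separated downwards (7.69%), Kmt2d, Nsd1 and Setd1a, where 8.39% of all genes were. Both shares were near or below those of all genes. When arrays were scaled to a common median, 3.32% of all genes were separated upwards and 5.25% downwards, and of the 39 genes 1 was separated upwards, Prdm1, and 2 downwards, Dot1l and Kdm5a. Under quantile normalization Kmt2b and Prdm1 were separated upwards and Kmt2d, Nsd1 and Wdr5 downwards, so Kdm4c and Setd1a were no longer separated under either scaling.

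Prdm1 encodes Blimp1, a transcriptional repressor with a PR domain related to SET that is known from sebaceous and suprabasal epidermal cells. Its signal was 293 and 364 on the Ezh2cKO arrays, against 225 and 287 on the WT arrays. The groups did not overlap, although the lower Ezh2cKO value and the higher WT value lay close together. The mean was 329 ± 50.1 in Ezh2cKO and 256 ± 43.7 in WT (SD, n = 2 each), with a log2 difference of 0.35 (95% interval -0.36 to 1.05). The difference was 0.36 within number 1 and 0.33 within number 2. Markers of suprabasal cells lay in the same direction. Of 7 such markers 5 were separated upwards, where 8.52% of all genes were, and 0 downwards. The summed signal of the 7 was 40357 and 35685 on the Ezh2cKO arrays, against 35565 and 30339 on the WT arrays. Most of that sum came from Krt1 and Krt10, for which the genotypes overlapped. Flg, the filaggrin gene of late differentiation, had 169 and 184 on the Ezh2cKO arrays, against 23.8 and 29.5 on the WT arrays. Both WT values lay under 73.2, the mean signal required for testing. Flg passed that level, at a mean of 102, only through its Ezh2cKO values. The part of these cells in the Prdm1 values was not tested.

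Kdm4c, which removes H3K9 and H3K36 trimethylation, had 243 and 212 on the Ezh2cKO arrays, against 201 and 148 on the WT arrays. These did not overlap either. Its log2 difference was 0.37 (95% interval -0.43 to 1.16), with 0.25 within number 1 and 0.48 within number 2. Kmt2d, a large enzyme that writes H3K4 monomethylation at enhancers, had 1418 and 1135 on the Ezh2cKO arrays, against 1600 and 1522 on the WT arrays. Both Ezh2cKO values were lower, by -0.17 within number 1 and -0.42 within number 2, and the log2 difference was -0.30 (95% interval -0.79 to 0.20). Its second probe set, with a mean signal near the level required for testing, had 64.6 and 104 on the Ezh2cKO arrays, against 83.3 and 101 on the WT arrays, and these overlapped.

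Nsd1, which writes H3K36 dimethylation, had 1242 and 1158 on the Ezh2cKO arrays, against 1446 and 1247 on the WT arrays. The nearest values of the genotypes differed by very little. The log2 difference was -0.16, and the other kept probe sets of Nsd1 lay between -0.17 and 0.18. Setd1a, the catalytic subunit of a complex that writes H3K4 trimethylation at promoters, had 1215 and 1221 on the Ezh2cKO arrays, against 1245 and 1338 on the WT arrays, a log2 difference of -0.08. For both genes the difference was small beside the 95% intervals, which were -0.63 to 0.31 for Nsd1 and -0.53 to 0.36 for Setd1a.

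**Figure D2:**
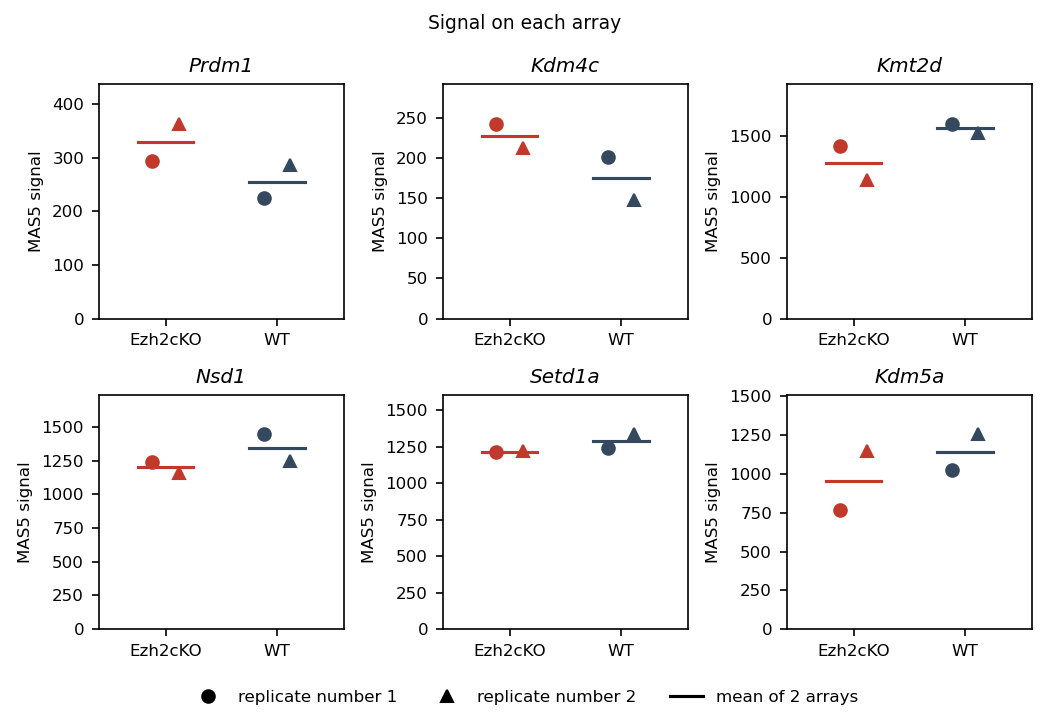
MAS5 signal on each array for the 5 separated genes and Kdm5a, with Ezh2cKO on the left of WT. Circles are replicate number 1, triangles number 2, and lines the mean of 2 arrays. For Prdm1 and Kdm4c both Ezh2cKO points lie above both WT points, for Kmt2d, Nsd1 and Setd1a both lie below, and for Kdm5a the genotypes overlap.

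Promoter sequences are shown for Prdm1 and Kdm4c, separated upwards, and for Kmt2d, which had the largest difference among the genes separated downwards. They are shown because mammalian Polycomb complexes are known to occupy promoters rich in CpG dinucleotides. The windows are the 250 bases before an annotated start of the gene, from RefSeq on GRCm38.p6, written along the gene's own strand, with each CG dinucleotide in capitals. Kdm4c has a pair of annotated starts. The array does not tell which start was used.
Prdm1 (chr10:44458749-44458998, minus strand): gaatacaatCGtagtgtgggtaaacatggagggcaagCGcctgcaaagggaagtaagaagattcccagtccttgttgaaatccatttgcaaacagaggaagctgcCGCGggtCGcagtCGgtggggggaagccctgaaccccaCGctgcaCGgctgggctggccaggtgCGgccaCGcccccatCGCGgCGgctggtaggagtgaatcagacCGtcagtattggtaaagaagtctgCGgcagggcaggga
Kdm4c, upstream start (chr4:74242247-74242496, plus strand): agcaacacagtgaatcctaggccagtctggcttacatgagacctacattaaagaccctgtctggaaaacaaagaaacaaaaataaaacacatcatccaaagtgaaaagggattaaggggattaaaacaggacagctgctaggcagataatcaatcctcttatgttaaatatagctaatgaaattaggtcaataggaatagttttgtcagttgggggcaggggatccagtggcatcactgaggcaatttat
Kdm4c, downstream start (chr4:74251629-74251878, plus strand): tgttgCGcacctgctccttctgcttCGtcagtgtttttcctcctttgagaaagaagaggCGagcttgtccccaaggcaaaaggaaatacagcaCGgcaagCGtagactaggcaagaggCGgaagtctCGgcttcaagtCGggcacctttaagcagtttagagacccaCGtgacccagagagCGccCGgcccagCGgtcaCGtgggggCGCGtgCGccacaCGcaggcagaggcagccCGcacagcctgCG
Kmt2d (chr15:98871206-98871455, minus strand): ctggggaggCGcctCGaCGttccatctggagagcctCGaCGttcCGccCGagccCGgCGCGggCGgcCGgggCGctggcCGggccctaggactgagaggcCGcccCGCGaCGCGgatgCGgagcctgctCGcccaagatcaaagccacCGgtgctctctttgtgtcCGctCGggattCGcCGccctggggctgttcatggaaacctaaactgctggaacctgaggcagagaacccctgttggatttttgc
These hold 15 CG dinucleotides for Prdm1, 0 and 19 for the upstream and downstream starts of Kdm4c, and 26 for Kmt2d. CG reads the same on both strands, and 92.1% of all 32851 windows of this length hold at least 1. At least the 15 of Prdm1 were found in 27.3% of all windows, and at least the 26 of Kmt2d in 9.59%. Windows were found for 26 of the 39 genes, 38 windows in all. Their median was 19.5 CG dinucleotides, beside 6 over all windows, and their median GC content was 61.8%, beside 52.4%. Of the 38 windows, 36 lay at or above the median of all windows, as did 16542 of all 32851. Those 32851 windows also belong to genes that were not tested here. Nsd1 had no window. Setd1a, also separated downwards, had a window with 25 CG dinucleotides that is not shown. Such a match describes the letters only.

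Among H3K4 methyltransferases, 3 of 9 genes had a positive and 6 a negative log2 difference, between -0.30 and 0.07. Kmt2a, the founding mammalian member that maintains Hox gene expression, had 943 and 1364 on the Ezh2cKO arrays, against 847 and 1385 on the WT arrays. The arrays numbered 2 were higher in both genotypes and the genotypes overlapped. Kmt2b, its closest paralog, had 2211 and 1917 on the Ezh2cKO arrays, against 1960 and 1953 on the WT arrays, a log2 difference of 0.07. Kmt2c, a paralog of Kmt2d that also acts at enhancers, had 4 kept probe sets with log2 differences from -0.03 to 0.08. Kmt2e, whose SET domain has no established histone methyltransferase activity, had 2651 and 2378 on the Ezh2cKO arrays, against 2420 and 2752 on the WT arrays. Its 4 kept probe sets were all slightly negative, from -0.16 to -0.04, and none was separated. Setd1b, the paralog of Setd1a, had 1432 and 1319, against 1473 and 1322 on the WT arrays, and the differences within the numbers were -0.04 and -0.003. The monomethyltransferase Setd7 had a log2 difference of -0.10. Smyd3, a SET and MYND domain enzyme, had 327 and 273 on the Ezh2cKO arrays, against 394 and 276 on the WT arrays, a log2 difference of -0.14. Another Smyd3 probe set, below the level required for testing, had 34.1 and 34.2, against 17.0 and 13.8 on the WT arrays, and such dim values were not tested.

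The shared subunits of the H3K4 methyltransferases stayed within log2 0.1 of WT by their brightest probe sets. Ash2l, a core subunit needed for full activity, had 2302 and 1767 on the Ezh2cKO arrays, against 2130 and 1731 on the WT arrays. Wdr5, the scaffold that holds the complex together, had 2239 and 1900, against 2243 and 2107 on the WT arrays. Men1 encodes menin, which tethers Kmt2a and Kmt2b to chromatin, and had 1204 and 895, against 1104 and 908 on the WT arrays. For all of these the genotypes overlapped and the arrays numbered 1 were higher in both genotypes. The second kept probe sets of Ash2l (-0.17) and Wdr5 (0.19) had the opposite sign to the brightest. Averaging the probe sets turned the sign of both genes, to -0.05 for Ash2l and 0.06 for Wdr5. A second Men1 probe set was separated upwards, at 551 and 475 on the Ezh2cKO arrays, against 447 and 455 on the WT arrays, with a log2 difference of 0.18.

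Of the 5 measured H3K36 methyltransferases, 1 was separated, Nsd1. Setd2, the enzyme for H3K36 trimethylation, had 1218 and 1072 on the Ezh2cKO arrays, against 1303 and 1099 on the WT arrays. Nsd2, a writer of H3K36 dimethylation, had 934 and 865, against 996 and 898 on the WT arrays. Each of these was slightly lower in Ezh2cKO within both numbers, by log2 values between -0.10 and -0.03, while the arrays overlapped across numbers. Nsd3, the third paralog, had 810 and 1054, against 693 and 1220 on the WT arrays. Its within-number differences of 0.22 and -0.21 had opposite signs. Smyd2, which methylates H3K36 and also non-histone proteins, had 3055 and 2670 on the Ezh2cKO arrays, against 2827 and 2800 on the WT arrays.

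By their brightest probe sets, none of the 5 measured H3K9 methyltransferases was separated, and their log2 differences lay between -0.09 and 0.02. Setdb1, which silences retroelements by H3K9 trimethylation, had 1271 and 1301 on the Ezh2cKO arrays, against 1265 and 1476 on the WT arrays. Setdb2, its paralog, had 482 and 457, against 476 and 525 on the WT arrays. Suv39h2, an enzyme of pericentromeric heterochromatin, had 354 and 210, against 323 and 249 on the WT arrays. Ehmt1 and Ehmt2 form the dimer that writes most H3K9 dimethylation in euchromatin. Ehmt1 had 2542 and 2487 on the Ezh2cKO arrays, against 2278 and 2703 on the WT arrays, and Ehmt2 had 3377 and 3427, against 3763 and 3115 on the WT arrays. For these probe sets the differences within the numbers had opposite signs for all 5 genes. Other probe sets of Setdb1 and Suv39h2 lay lower. A second Suv39h2 probe set was separated downwards, at 265 and 260 on the Ezh2cKO arrays, against 312 and 289 on the WT arrays, a log2 difference of -0.18. A second, dim Setdb1 probe set had 32.1 and 124, against 80.7 and 97.4 on the WT arrays, a log2 difference of -0.35 with opposite signs in the numbers. Averaged over its kept probe sets, Setdb1 had a log2 difference of -0.22, the lowest of the 39 genes under that setting.

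The H4K20 methyltransferases differed in sign. Kmt5a, the monomethyltransferase needed for chromosome condensation, had 3223 and 3643 on the Ezh2cKO arrays, against 3448 and 3690 on the WT arrays, a log2 difference of -0.06. Kmt5b and Kmt5c add the further methyl groups. Kmt5b had 733 and 871, against 651 and 758 on the WT arrays, and the genotypes overlapped across numbers. It was higher in Ezh2cKO by log2 0.17 within number 1 and 0.20 within number 2, and 3 of its 4 kept probe sets were positive, up to 0.29. Kmt5c had 1393 and 1613 on the Ezh2cKO arrays, against 1500 and 1766 on the WT arrays, and was lower by -0.11 and -0.13 within the numbers. The 95% intervals were -0.36 to 0.72 for Kmt5b and -0.60 to 0.36 for Kmt5c, and both included 0. Dot1l, the sole known H3K79 methyltransferase, had 966 and 1565 on the Ezh2cKO arrays, against 1025 and 1582 on the WT arrays, a log2 difference of -0.05.

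The 12 demethylases had a median log2 difference of -0.06, and 1 of them, Kdm4c, was separated. Kdm1a, the flavin-dependent H3K4 demethylase, had 3471 and 2853 on the Ezh2cKO arrays, against 3552 and 2963 on the WT arrays. Kdm5a and Kdm5b remove H3K4 trimethylation. Kdm5a had 767 and 1149, against 1027 and 1257 on the WT arrays, with log2 differences of -0.41 within number 1 and -0.13 within number 2. The genotypes overlapped for this probe set. Kdm5b had 1460 and 1457 on the Ezh2cKO arrays, against 1683 and 1399 on the WT arrays. The H3K36 demethylases Kdm2a and Kdm2b bind unmethylated CpG through a zinc finger, and Kdm2b recruits a form of Polycomb repressive complex 1. Kdm2b had 3191 and 2424 on the Ezh2cKO arrays, against 3075 and 2697 on the WT arrays, and Kdm2a had 1904 and 2039, against 1841 and 2320 on the WT arrays. Both had small differences of opposite sign within the numbers.

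The H3K9 demethylases Kdm3a and Kdm3b had log2 differences of 0.01 and 0.06. Kdm3a had 2313 and 1505 on the Ezh2cKO arrays, against 2010 and 1718 on the WT arrays, and Kdm3b had 1309 and 905, against 1152 and 944 on the WT arrays. The arrays numbered 1 were higher in both genotypes for both genes. Kdm4a, a paralog of Kdm4c, had 345 and 733 on the Ezh2cKO arrays, against 450 and 737 on the WT arrays, and here the arrays numbered 2 were higher. Kdm4b had 369 and 294, against 420 and 289 on the WT arrays. The Ezh2cKO and WT ranges overlapped for both.

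The H3K27 demethylases remove the mark that Ezh2 writes. Kdm6a, encoded on the X chromosome, had 1064 and 1263 on the Ezh2cKO arrays, against 1206 and 1263 on the WT arrays. Its second probe set was separated downwards, at 708 and 772 on the Ezh2cKO arrays, against 990 and 809 on the WT arrays, with log2 differences of -0.47 within number 1 and -0.07 within number 2. Kdm6a is known to escape X inactivation, and Xist, the RNA of the inactive X, had 86.9 and 11333 on the Ezh2cKO arrays, against 8669 and 10527 on the WT arrays. Uty, its homolog on the Y chromosome, had 354 and 218, against 134 and 286 on the WT arrays. The first Ezh2cKO array thus had the lowest Kdm6a and Xist values and the highest Uty value of the 4. The other arrays had Xist at 8669 or more together with Uty between 134 and 286. The labels do not give embryo sex, or whether an array held embryos of 1 sex or both. The part of embryo sex in the Kdm6a values was not tested. Kdm6b, an inducible enzyme, had 1276 and 1452 on the Ezh2cKO arrays, against 1326 and 1177 on the WT arrays. The genotypes overlapped, with a log2 difference of 0.12. A further Kdm6b probe set had 250 and 898, against 182 and 556 on the WT arrays. It was higher on the arrays numbered 2, by log2 1.66, and higher in Ezh2cKO within both numbers, with a log2 difference of 0.55. The genotypes overlapped across numbers. The summed stress and dissociation genes given above were also higher on the arrays numbered 2, and in Ezh2cKO within both numbers. The part of stress or dissociation in the Kdm6b values was not tested.

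Many of these genes had several probe sets, which did not always give the same sign. Of 26 genes with more than 1 kept probe set, 12 had both positive and negative log2 differences. The 5 kept probe sets of Kdm5a ran from -0.52 to 0.39. The lowest of them was separated, at 206 and 352 on the Ezh2cKO arrays, against 381 and 407 on the WT arrays, and had an unadjusted limma p of 0.166, the smallest among the 87 probe sets (adjusted p = 0.999979 over all probe sets tested). Kdm5b reached log2 0.70 on a dim probe set with 68.7 and 183 on the Ezh2cKO arrays, against 30.1 and 122 on the WT arrays, while its brightest gave -0.07. Over all 87 kept probe sets, 3 were separated upwards (3.45%), where 7.22% of all probe sets were, and 6 downwards (6.9%), where 7.21% were. The 43 probe sets under the median signal of 771 had a median size of difference of 0.13, and the 44 at or above it had 0.07. The other 18 probe sets of the 39 genes were below the level required for testing, and 1 probe set shared by Kdm6b and another gene was left out.

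**Figure D3:**
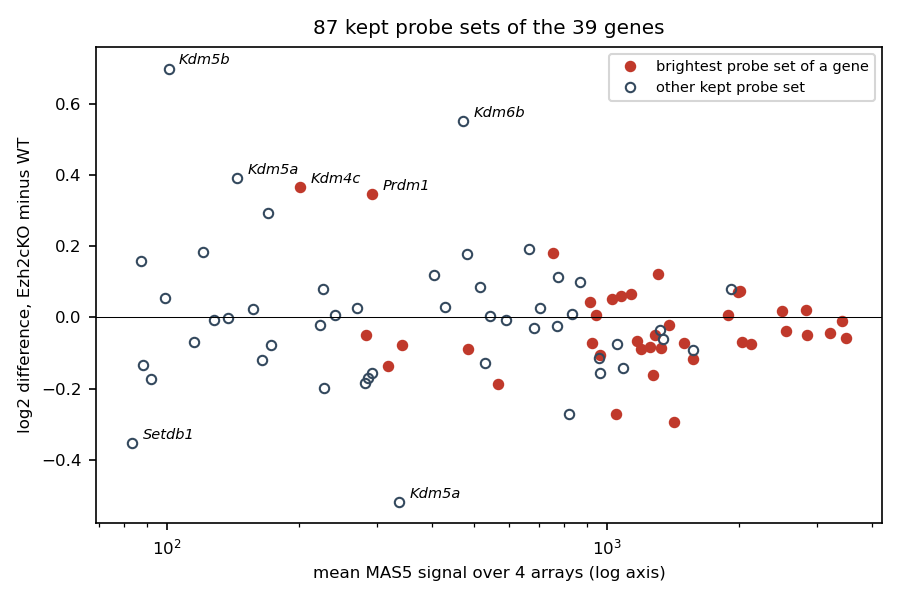
Log2 difference between Ezh2cKO and WT against mean signal over the 4 arrays, on a log axis, for the 87 kept probe sets. Filled points are the brightest probe set of each of the 39 genes and open points are the others. Differences beyond 0.34 in size are named, and all of these lie at mean signals under 500.

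Differences between arrays of unlike number were larger than those between the genotypes for most members. Between the arrays of number 1 the median size of the log2 difference over the 39 genes was 0.13 for Ezh2cKO against WT, and between those of number 2 it was 0.12. Between arrays of the same genotype it was 0.22 in Ezh2cKO and 0.23 in WT. For 31 of 39 genes (79.5%) the difference between numbers was larger than that between genotypes, beside 76.4% of all genes. It reached log2 0.5 for 5 genes (12.8%), beside 24.5% of all genes. Of these, Kdm4a (0.87), Dot1l (0.65), Kmt2a (0.61) and Nsd3 (0.59) were higher on the arrays numbered 2, and Suv39h2 (-0.54) was lower there. The within-number differences between genotypes had the same sign for 20 of 39 genes, beside 50.8% of all genes. Of the 39, 4 were positive in both numbers, Ash2l, Kmt5b, Prdm1 and Kdm4c, beside 25.2% of all genes, and 16 were negative in both, beside 25.6%. Negative values in both numbers were thus more frequent among the 39 than over all genes, a difference that was not tested. The median over the 39 genes was -0.003 within number 1 and -0.05 within number 2. The count therefore does not show an excess of negative values in each number.

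**Figure D4:**
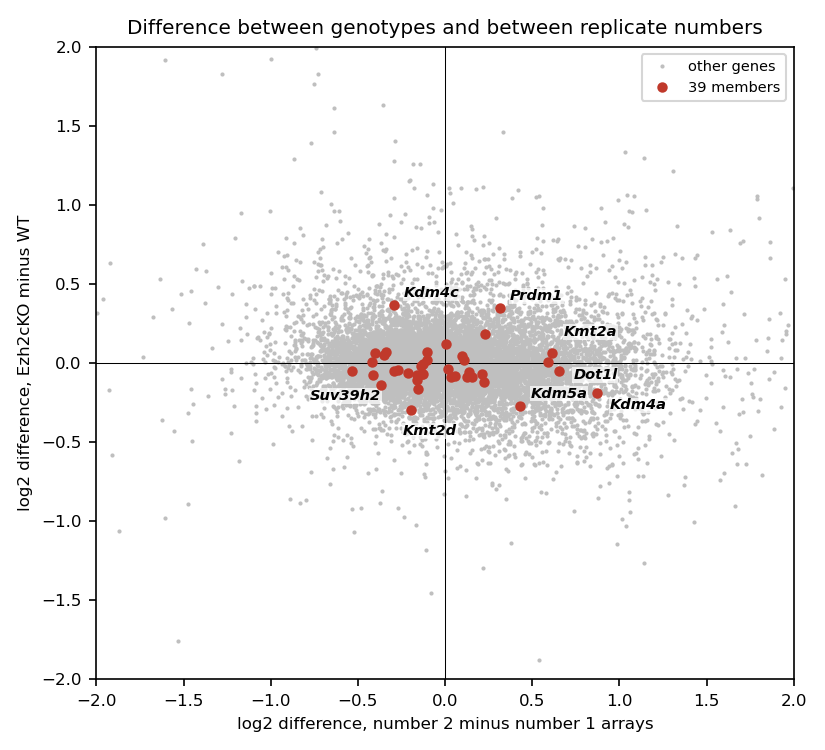
Log2 difference between Ezh2cKO and WT against the log2 difference between the arrays numbered 2 and those numbered 1, for the 39 genes (red) and the other genes tested (grey). The axes end at 2 in each direction, which leaves out 70 genes, none of them a member. The 39 genes spread from -0.54 to 0.87 along the horizontal axis and from -0.30 to 0.37 along the vertical axis.

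Other genes of histone methylation were described from lists that hold none of the 39. No gene of these lists passed limma's adjusted threshold. Of 11 tested further lysine methyltransferases of the Setd, Smyd and Prdm families, 0 were separated. Shares of all genes separated, for comparison, were 8.52% upwards and 8.39% downwards. Of 13 further demethylases and JmjC proteins, 1 was separated upwards and 1 downwards. Phf2, a JmjC protein acting on H3K9, had 1588 and 1698 on the Ezh2cKO arrays, against 1332 and 1455 on the WT arrays, a log2 difference of 0.24. Kdm1b, the paralog of Kdm1a, had 728 and 852, against 871 and 885 on the WT arrays, a log2 difference of -0.15. The largest difference of that list was in Kdm5d, a Y-linked H3K4 demethylase singled out after its values were seen. It had 494 and 231 on the Ezh2cKO arrays, against 118 and 287 on the WT arrays. Its log2 difference was 0.82, with 1.92 within number 1 and -0.29 within number 2, and the part of embryo sex was not tested. Among 9 other subunits of H3K4 methyltransferase complexes, Paxip1 and Cxxc1 were separated, in opposite directions. Paxip1, a subunit of the Kmt2c and Kmt2d complexes, had 1452 and 1293 on the Ezh2cKO arrays, against 1165 and 1074 on the WT arrays, a log2 difference of 0.29. Cxxc1, the CpG-binding subunit of the Setd1 complexes, had 1263 and 1126, against 1430 and 1534 on the WT arrays, a log2 difference of -0.31. Of 7 readers and partners of H3K9 methylation 0 were separated. Of 8 protein arginine methyltransferases 1 was, Carm1, with 3565 and 3312 on the Ezh2cKO arrays, against 3121 and 3188 on the WT arrays. Across these 5 lists the medians lay between -0.04 and 0.08, beside -0.05 for the 39 genes.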

How the data were processed

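RNA from sorted basal cells was hybridised to 4 mouse arrays of 1 colour, 2 per genotype. The deposited intensity values are linear signals. The submitters' processing notes name MAS5, with its version not given in the sources used here. Each deposited column had a trimmed mean of 500.0 with 2% left out at each end. No detection calls were used here, so background is unknown, and the number of arrays limits the precision.

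Of 45101 rows, 64 control probe sets were left out. Genes came from the platform annotation, updated by gene ID through the RefSeq table of GRCm38.p6 (34741 of 34945 probe sets naming 1 gene matched), and probe sets naming several genes or none (932 and 9160) were not given to a gene. From the deposited intensity values log2(signal + 16) was computed, and the upper 60% by mean signal (at least 73.2), 27022 probe sets, were tested with limma 3.58.1 in R 4.3.3 with an intensity trend, no block and Benjamini-Hochberg adjustment at 0.05. The script was tested on simulated data. The brightest kept probe set stood for a gene, and every measured member was named. From each other list up to 3 separated genes with the largest difference were named, and Ezh2 as the check of the labels. The members and lists were chosen with earlier results of these data known. Alternatives were the pseudocount, the filter, quantile or median scaling, averaging the probe sets of a gene, no trend, another threshold, a replicate block, and leaving out each array.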

Additional observations from a re-analysis of the deposited data

How the results depend on the processing

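No probe set of the 39 genes was called under any alternative tried. Over all 27022 probe sets, 0 were called without a block and 6 with the replicate number as a block. Leaving out single arrays gave 0 to 52, with 15 without the second Ezh2cKO array, 11 without the first WT array and 52 without the second. Same-numbered arrays deviated together (correlation 0.766 over 27022 probe sets), but the labels state no pairing and there are only 2 pairs, so the block is given here alone. With the replicate block, by brightest probe sets, 1 of the 39 genes, Kmt2d, fell under an unadjusted p of 0.05 (limma, adjusted p = 0.997). So did 728 of all 12703 genes. Over all kept probe sets of the 39 genes the lowest adjusted p in limma with the block was 0.813. The count of genes separated upwards, 2, was 1 with the upper 40% of probe sets and 1 with a common median. It was 3 when the probe sets of a gene were averaged (with Kdm5b added), and 4 to 10 when single arrays were left out. Of all genes, 7.99% were separated upwards with the upper 40%, 3.32% with a common median and 8.61% with averaged probe sets. With single arrays left out, 24.8% to 36.9% of all genes were. The count separated downwards, 3, was 1 when the probe sets of a gene were averaged, where 7.22% of all genes were separated downwards. It was 9 to 19 of 39 when single arrays were left out, where fewer arrays make separation easier. The count was 19 without the first WT array, where 25.2% of all genes were separated downwards. It was also 19 without the first Ezh2cKO array, where 35.5% were, and 9 without the second, where 30.8% were. These differences from all genes were not tested. The median log2 difference of -0.05 was -0.03 with quantile normalization and -0.07 with a common median. It lay between -0.075 and 0.025 when single arrays were left out. Over all genes the median was -0.009 with quantile normalization and -0.025 with a common median. It lay between -0.018 and 0.028 over all genes when single arrays were left out. With no detection calls, what dim probe sets measure above background is unknown.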
